A study of Caenorhabditis elegans with 4 samples.

Results

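HCP-4 is the Caenorhabditis elegans counterpart of CENP-C, the inner kinetochore protein that links centromeric nucleosomes, which carry the histone H3 variant CENP-A (HCP-3 in this worm), to the outer kinetochore that holds microtubules. C. elegans chromosomes are holocentric, so that a kinetochore forms along the whole length of each mitotic chromosome and no single centromere exists. The middle of each worm autosome is known as a gene-rich domain with little meiotic recombination, whereas the arms on either side carry more repeats and recombine more. Peaks of HCP-4 chromatin immunoprecipitation followed by sequencing (ChIP-seq) that lie in the middle of the chromosomes are described here.

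Wild-type embryos of mixed stages (strain N2, males and hermaphrodites, 20 °C) were fixed with 1% formaldehyde and immunoprecipitated with a polyclonal rabbit antibody raised against HCP-4 and affinity-purified. There were 2 ChIP libraries and 2 input libraries, all of this single genotype and stage. Peak lists of ChIP replicates 1 and 2 and 1 list for the whole series were used, and the inputs were not analysed here. Embryos of mixed stages hold many cell types and cell cycle stages, and the lists average over them.

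Each of the 6 nuclear chromosomes was divided into 3 equal parts, from base 1 to the last base of the last peak in any of the 3 lists. The members are the series-level peaks whose midpoint lay in the central part, 219 of 670 nuclear peaks (672 with the mitochondrial peaks). They are called central peaks, and the other 451 are called outer peaks. On the WS220 build the central parts ran from 5024146 to 10048293 on I, from 5047489 to 10094979 on II and from 4594577 to 9189154 on III. They ran from 5831275 to 11662549 on IV, from 6974727 to 13949454 on V and from 5770607 to 11541213 on X. The bounds split no peak. The members nearest to a bound were 4 neighbouring peaks at II 5073408 to 5075848, 26.0 to 28.2 kb inside, with scores of 2.79 to 6.38, and a peak at IV 11614963 to 11615252, 47.4 kb inside, with a score of 3.35. None of these 5 overlapped a peak of either replicate list. The 5 peaks nearest to a bound from outside lay together on V, at 6938862 to 6942984 and 32.2 to 35.8 kb outside, with scores of 4.90 to 41.9.

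All values below describe peaks and their scores as the authors' peak caller gave them. A score ranks peaks within its own list only, because its scale is not stated. Read counts are not in these lists, so depth is unknown. Peaks are not replicates and only 2 ChIP libraries have lists, so no test between central and outer peaks was made. Intervals on shares are 95% Wilson intervals, cover the number of peaks only, and treat neighbouring peaks as independent, which they are not.

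The central peaks were spread very unevenly over the chromosomes. Chromosome IV held 90 of the 219 and III held 53, against 32 on II, 18 on V, 17 on X and 9 on I. The density in the central part was 15.4 peaks per Mb on IV, 11.5 on III and 6.34 on II, and 2.95 on X, 2.58 on V and 1.79 on I. In the outer parts it was 4.97 peaks per Mb on IV, 8.38 on III, 5.84 on II, 5.63 on X, 7.67 on V and 8.46 on I. The central density was thus above the outer density on II, III and IV and below it on I, V and X. Over all 6 chromosomes the densities were nearly equal, at 6.59 central and 6.78 outer peaks per Mb.

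**Figure D1:**
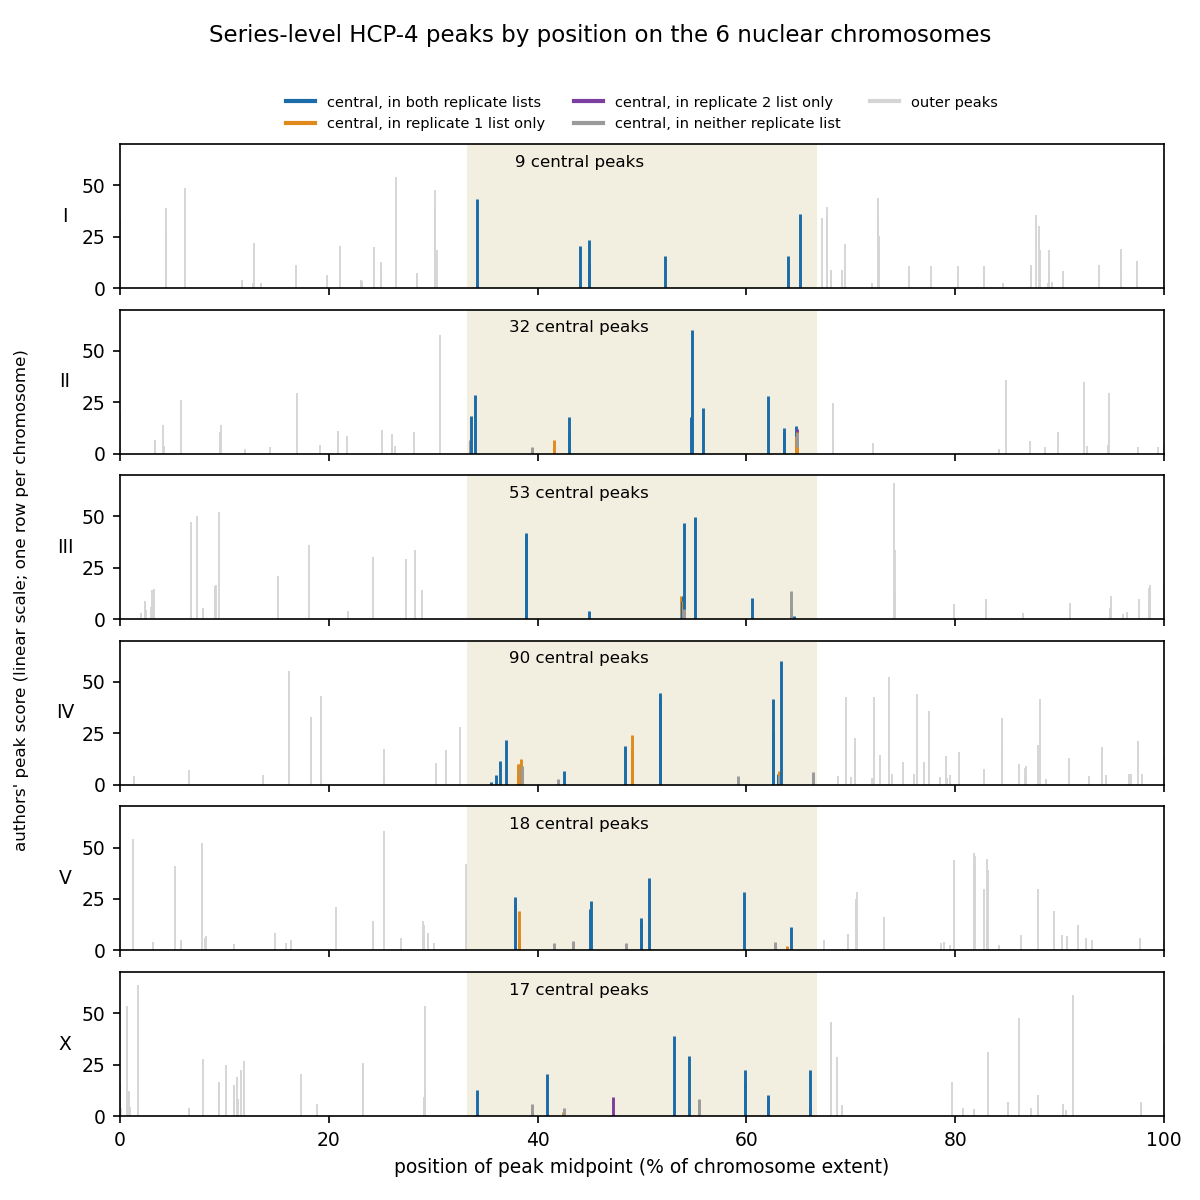
Series-level peaks on the 6 nuclear chromosomes, with the midpoint as a percentage of the chromosome extent on the x axis and the authors' score on the y axis. Shading marks the central part; its peaks are coloured by the replicate lists they overlap, and grey lines outside are outer peaks. The 9 central peaks of I are few and mostly tall, whereas the 90 of IV include stacks of low peaks at single positions.

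The chromosomes differed less when neighbouring peaks were counted as 1 region. Peaks with fewer than 10 kb between them were joined, which gave 62 central regions among 278 (216 outer). A region here runs from its first to its last peak. The central parts held 15 regions on IV, 12 on V, 11 each on II and X, 7 on III and 6 on I. In each of the 6 chromosomes the density of regions was lower in the centre. It ranged from 1.19 per Mb on I to 2.57 per Mb on IV in the central parts, and from 2.87 per Mb on V to 3.94 per Mb on IV in the outer parts. Over all chromosomes it was 1.87 regions per Mb in the central and 3.25 in the outer parts. Regions made up 22.3% of the whole in the centre (interval 17.8 to 27.6%), whereas single peaks made up 32.7% (interval 29.2 to 36.3%).

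Long stretches of the centres, like those of the outer parts, held no series-level peak. The longest stretch free of series-level peaks in a central part was 1.90 Mb on V (10612457 to 12509906), 1.78 Mb on II (6508519 to 8287515) and 1.77 Mb on I (7869493 to 9636954). On IV, III and X it was 1.30, 1.22 and 1.00 Mb. Such a stretch can still hold a peak of a replicate list, as that on X does at 8603084 to 8603272 in replicate 2. The longest gap between neighbouring outer peaks of 1 part was 1.83 Mb. Between stretches of this kind, neighbouring central peaks lay close together: their median gap was 0.444 kb, against 2.38 kb for outer peaks, and 60.6% of central gaps were under 1 kb, against 43.7% of outer gaps. Between central peaks found in both replicate lists the median gap was 116 kb, and 25.0% of these gaps were under 1 kb.

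Most central peaks belonged to 5 dense regions. These regions of 5 or more peaks held 134 of the 219 central peaks, or 61.2%, while 21 such regions held 169 of the 451 outer peaks, or 37.5%. Over all nuclear peaks the share was 45.2%. The 5 held 57, 45, 16, 10 and 6 peaks. The largest outer region held 19. A further 21 central regions held 2 to 4 peaks, and 36 were a single peak.

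The region with the most peaks, called the largest, lay at IV 6668654 to 6730413. Its 57 peaks covered 24.2 kb of 61.8 kb and were narrow and low, with a median width of 315 bp and scores of 2.05 to 12.3 (median 5.36). Replicate 1 had 48 peaks there, with scores of 51.0 to 238 and 11.3 kb covered, whereas replicate 2 had 5 peaks with 0.755 kb covered. The 5 replicate 2 peaks scored 52.2 to 64.3, close to the lowest central score of that list, 50.3. Of the 57 members, 5 overlapped both replicate lists, 27 replicate 1 only and 25 neither. The 5 found in both lay between 6710633 and 6727109, in the right part of the region.

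The region at III 7405449 to 7451769 held 45 peaks over 46.3 kb and combined low peaks with 1 of the highest of all central peaks. Its peak at 7444280 to 7448131 was 3852 bp wide and scored 46.75, with 3121 in replicate 1 and 3100 in replicate 2. The next highest peak of the region scored 11.4, and the median was 5.01. The region held 25 replicate 1 peaks (12.4 kb) and 13 replicate 2 peaks (7.84 kb). Of its 45 members, 10 overlapped both lists, 16 replicate 1 only, 2 replicate 2 only and 17 neither. It was the dense central region in which replicate 2 covered most, 38.9% of the member bases, against 58.5% for replicate 1.

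The remaining dense regions were recorded mainly or wholly without replicate 2. The region at II 9807974 to 9825169 had the highest share of its span under peaks, with 16 peaks covering 14.2 of 17.2 kb, and scores of 2.65 to 13.3. Replicate 1 had 19 peaks there (4.65 kb) and replicate 2 had 3 (0.651 kb). At IV 8573298 to 8581051, 10 peaks with scores of 3.15 to 24.3 lay under 5 replicate 1 peaks that covered 7.16 of 7.75 kb, and replicate 2 had no peak. At IV 11610961 to 11615252, 6 peaks with scores of 3.35 to 6.09 had no counterpart in either replicate list.

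Over the 5 dense regions together, replicate 1 covered 46.1% of the member bases with 97 peaks in these spans, and replicate 2 covered 13.4% with 21 peaks. In the 21 dense outer regions the pooled values were close to each other, at 43.8% (106 peaks) for replicate 1 and 41.3% (103 peaks) for replicate 2. Region by region, replicate 1 exceeded replicate 2 in 15 of these 21 and fell below it in 5. In the 5 dense central regions these counts were 4 and 0. The peaks of a dense central region followed each other at a median distance between midpoints of 664 to 819 bp, depending on the region. For dense outer regions this distance ran from 514.5 to 1882 bp.

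**Figure D2:**
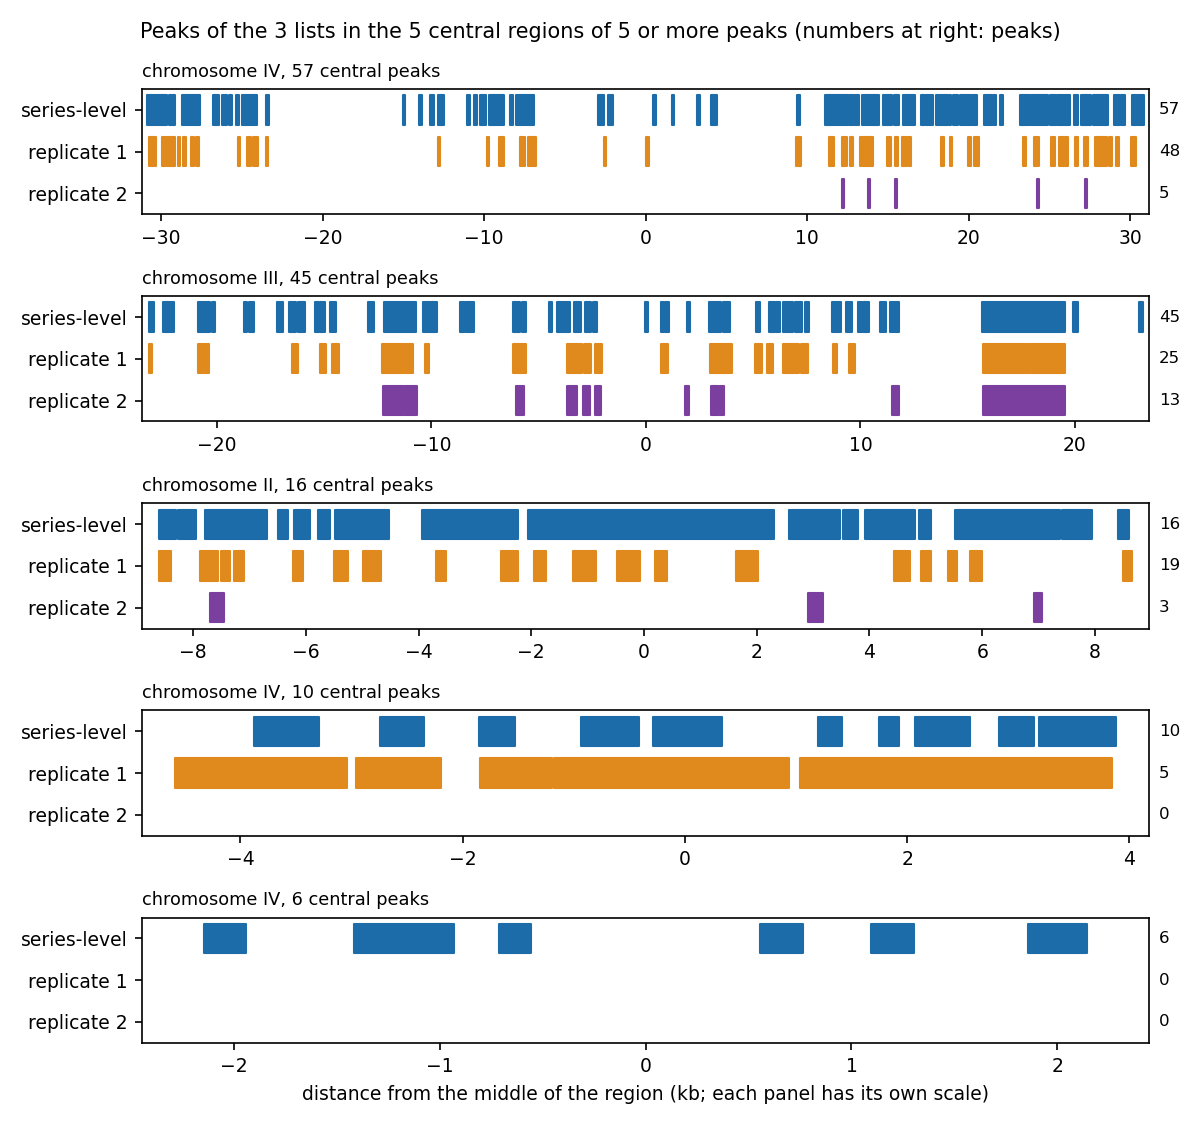
Peaks of the series-level list, replicate 1 and replicate 2 in the 5 central regions of 5 or more peaks, with the distance from the middle of the region in kb on the x axis. Numbers at the right count the peaks in each row; replicate 1 has 48, 25, 19, 5 and 0 peaks in the 5 panels, and replicate 2 has 5, 13, 3, 0 and 0.

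The next comparison asked which central peaks recurred in the replicate lists. Of the 219 central peaks, 70 overlapped a peak of both replicate lists by at least 1 bp (32.0%, interval 26.1 to 38.4%), against 41.6% of all nuclear peaks and 46.3% of outer peaks (209 of 451, interval 41.8 to 51.0%). Central peaks overlapped replicate 1 in 139 cases (63.5%) and outer peaks in 271 (60.1%), with 61.2% over all nuclear peaks. Replicate 2 was overlapped by 76 central peaks (34.7%) and by 244 outer peaks (54.1%), with 47.8% over all. The central and outer shares were thus similar for replicate 1 and far apart for replicate 2.

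A large class of central peaks was found in replicate 1 alone. This class held 69 central peaks (31.5%) and 62 outer peaks (13.7%), against 19.6% of all nuclear peaks. Replicate 2 alone had 6 central peaks (2.74%) and 35 outer peaks (7.76%), against 6.12% of all. Neither list had 74 of the central peaks (33.8%) and 145 of the outer peaks (32.2%), against 32.7% of all.

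The dense regions held most of the peaks that did not recur. They contained 61 of the 69 central peaks found in replicate 1 alone and 53 of the 74 found in neither list, but 17 of the 70 found in both. Of all central peaks they contained 61.2%. Dense outer regions contained 34 of the 62 outer peaks in replicate 1 alone, 61 of the 145 in neither list and 55 of the 209 in both. Within the dense regions 12.7% of central peaks overlapped both lists (interval 8.07 to 19.4%), against 32.5% of the peaks in dense outer regions. The other 85 central peaks overlapped both lists in 62.4% of cases (53 peaks, interval 51.7 to 71.9%), against 54.6% of the other outer peaks (interval 48.8 to 60.3%). Outside the dense regions, 8 central peaks were found in replicate 1 alone, 3 in replicate 2 alone and 21 in neither list. The sign of the difference between central and outer shares therefore depended on the dense regions, which were set apart after their replicate counts had been seen. Outside the dense regions the central and outer intervals overlap, so the reversed direction is not resolved.

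**Figure D3:**
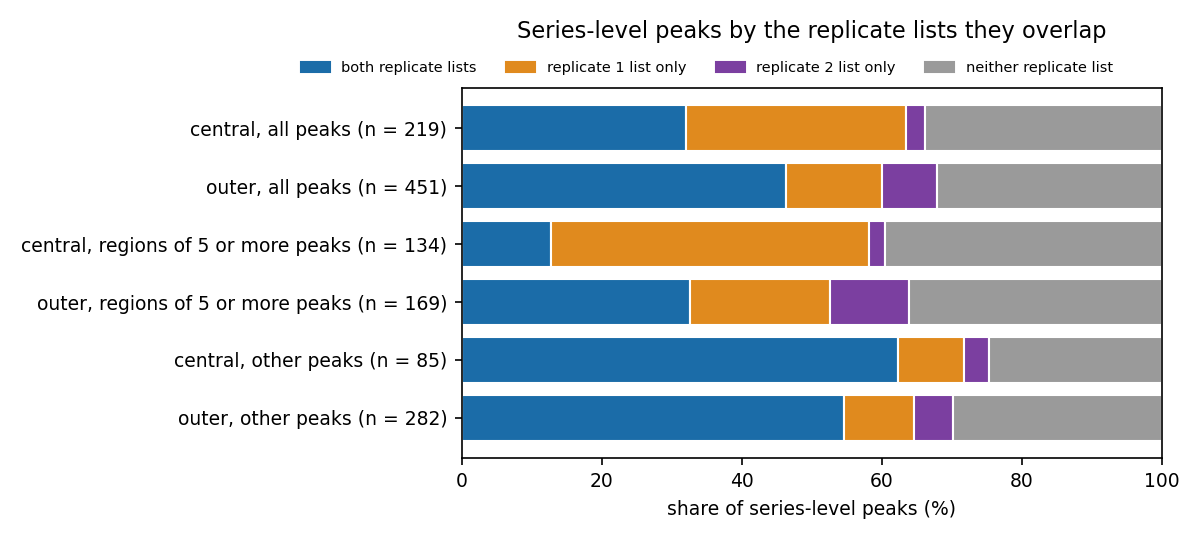
Share of series-level peaks, in percent on the x axis, that overlap both, 1 or neither of the replicate lists, for central and outer peaks and for peaks inside and outside regions of 5 or more peaks. The overlap with both lists is 12.7% in dense central regions and 62.4% among the other central peaks.

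Counted as regions, most sites recurred, in the central parts and in the outer parts alike. Both replicate lists had a peak in 44 of 62 central regions (71.0%, interval 58.7 to 80.8%), against 135 of 216 outer regions (62.5%, interval 55.9 to 68.7%). These intervals overlap. Replicate 1 alone had a peak in 5 central regions, replicate 2 alone in 1, and neither in 12. All 6 central regions of chromosome I and 11 of 15 on IV were found in both lists, but 6 of 12 on V. Of the 36 central regions made of a single peak, 25 were found in both lists (69.4%), against 83 of 143 such outer regions (58.0%). A wide region meets a peak by its span more easily than a single peak does.

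By chromosome, the share of central peaks found in both lists was lowest on IV, with 18 of 90 (20.0%), and 16 of 53 on III (30.2%). It was 11 of 32 on II, 9 of 18 on V, 9 of 17 on X and 7 of 9 on I. Among outer peaks the share was 63.8% on IV (37 of 58), 53.8% on X, 49.4% on I, 41.6% on III, 39.3% on V and 35.6% on II. The central share was below the outer share on II, III, IV and X, by little on II and X. It was above the outer share on I and V. The low share in the centre of IV includes the 57 peaks of the largest region, 5 of which were found in both lists.

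The replicate lists themselves differed in how many of their peaks were central. Replicate 1 had 194 of 568 nuclear peaks in the central parts (34.2%) and replicate 2 had 109 of 447 (24.4%), a mean of 29.3 ± 6.91% (SD, n = 2). On IV the central part held 75 replicate 1 peaks and 22 replicate 2 peaks, on III 33 and 21, and on II 32 and 16. On I, V and X the lists were close, with 10 and 10, 26 and 22, and 18 and 18 central peaks in replicates 1 and 2. With the 5 dense central regions left out, the shares were 20.6% in replicate 1 (97 peaks left) and 20.7% in replicate 2 (88 peaks left). The regions left out were known to hold 97 peaks of replicate 1 and 21 of replicate 2, and all outer peaks stayed in. Both shares therefore had to fall, that of replicate 1 further, and their near equality is not an independent result. By bases, the central parts held 31.1% of the nuclear sequence under replicate 1 peaks and 26.7% of that under replicate 2 peaks. Central peaks of replicate 2 were found in replicate 1 in 94 of 109 cases (86.2%), whereas central peaks of replicate 1 were found in replicate 2 in 80 of 194 (41.2%). Among outer peaks these values were 259 of 338 (76.6%) and 241 of 374 (64.4%). Without the 5 dense central regions the central values were 77 of 88 (87.5%) and 63 of 97 (64.9%), while the outer values still include the dense outer regions.

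The highest central peaks lay on all 6 chromosomes. Among the 25 with the highest series-level score that overlapped both lists, 5 each were on IV and V, 4 each on II, III and X, and 3 on I. Their scores ran from 22.0 to 60.2 and their widths from 304 to 8091 bp (median 1877 bp). The 25 came from 21 regions, and 1 of them, the III peak at 7444280, lay in a dense region. The highest overlapping replicate score ran from 184 to 3121 in the replicate 1 list and from 81.4 to 3100 in the replicate 2 list.

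The highest central score belonged to IV 11070828 to 11075796, a peak of 4969 bp with 60.2 in the series-level list and 3100 in each replicate. It was followed by II 8288307 to 8292762 (4456 bp), which scored 60.0 and also 3100 in each replicate. A score of 3100 was reached or passed by 6 of the 70 central peaks found in both lists in replicate 1 and by 5 in replicate 2, so the order among these is not resolved by the replicate scores. Next came III 7594603 to 7597195 (2593 bp), with 49.75 in the series-level list, 2329 in replicate 1 and 1089 in replicate 2. The highest peaks of the other chromosomes were I 5152519 to 5153846 (1328 bp, score 43.1), X 9184892 to 9188729 (3838 bp, score 39.0) and V 10605616 to 10612456 (6841 bp, score 35.3). The I peak had 1146 in replicate 1 and 347 in replicate 2, the X peak 2620 and 2205, and the V peak 2485 and 3100.

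Several high peaks were neighbours that a replicate list had as 1 peak. The series-level peaks at IV 9045760 to 9047869 (score 41.8) and IV 9048023 to 9048709 (score 44.5) lay under the same replicate 1 peak (1653) and the same replicate 2 peak (1642). At III 5353057 to 5356524 (score 41.7) and III 5356661 to 5358537 (score 39.7), 1 replicate 1 peak of score 3100 spanned both, while in replicate 2 the scores were 595 and 563. In all, 16 replicate 1 peaks and 8 replicate 2 peaks each overlapped several central peaks. Conversely, 30 central peaks overlapped several replicate 1 peaks and 23 several replicate 2 peaks. The widest central peak, V 7916938 to 7925028 (8091 bp, score 26.0), was represented by 4 separate replicate 1 peaks and 6 separate replicate 2 peaks.

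The replicate scores of the 70 central peaks in both lists ranked alike, with a Spearman rho of 0.844, and 0.730 for the 209 outer peaks in both lists. These coefficients are descriptions across peaks, which share their libraries, and neighbours that lie under 1 replicate peak enter with the same score. Replicate 1 scores ran from 53.9 to 3121 (median 274) and replicate 2 scores from 52.0 to 3100 (median 228).

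**Figure D4:**
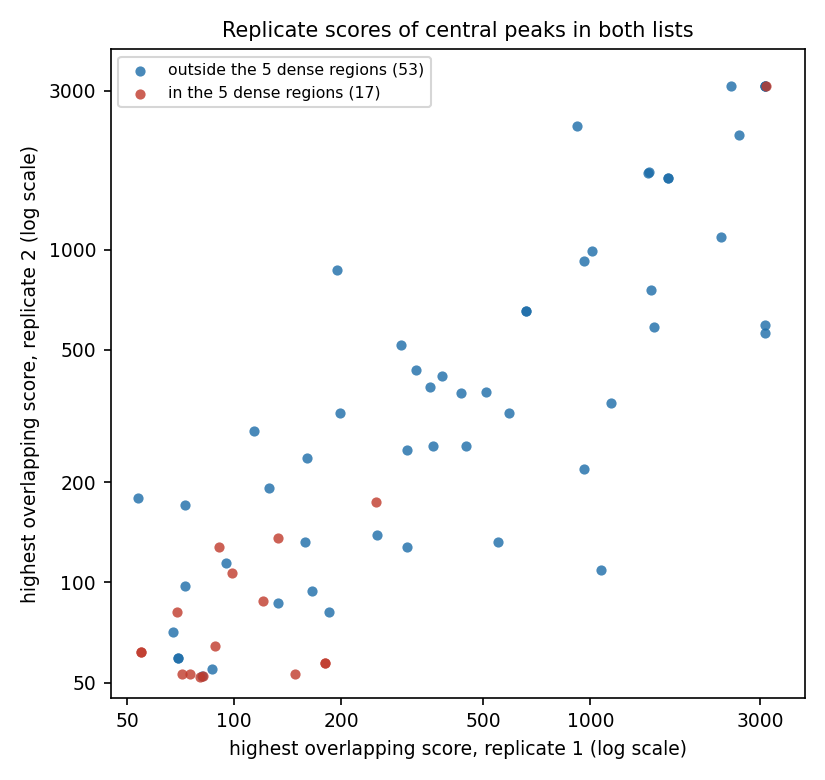
Highest overlapping score in replicate 1 (x axis) and replicate 2 (y axis), both on log scales, for the 70 central peaks found in both lists. Of these, 17 lie in the 5 dense regions and, apart from the III peak at 3121 and 3100, these score at most 251 in replicate 1 and 174 in replicate 2.

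Central peaks were mostly narrow and low, and a few wide ones held much of the sequence. Their median width was 322 bp (range 146 to 8091 bp), against 384 bp for outer peaks (146 to 11706 bp), and their median score was 5.97 (range 1.35 to 60.2), against 7.57 for outer peaks (1.69 to 66.1). Both differences changed with the dense central regions. Without the 2 regions with the most peaks the central median was 443 bp and the central score 8.36, above the medians of all outer peaks. Without the largest region alone, central minus outer was still -54.5 bp and -1.215. Outside all regions of 5 or more peaks, central peaks had medians of 469 bp and 11.2, and outer peaks 377.5 bp and 8.985. For peaks in both lists the score difference was -2.045. The central peaks covered 157 kb, with a mean width of 718 bp, and the outer peaks 351 kb, with a mean width of 778 bp.

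Peaks of at least 2 kb numbered 17 among the central peaks (7.76%), against 39 among the outer peaks (8.65%) and 8.36% of all nuclear peaks. They held 66.9 kb, which is 42.5% of the central bases, and 41.5% of the outer bases were held likewise. Of these 17, 16 were found in both replicate lists, as were 38 of the 39 outer ones. The central exception was II 9814522 to 9818869, a 4348 bp peak of the dense region on II that scored 8.93. It overlapped 5 replicate 1 peaks and no replicate 2 peak.

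Central peaks found in both lists had a median width of 748.5 bp and a median score of 15.6. Those found in replicate 1 alone had 334 bp and 6.33, and those found in neither list 221 bp and 4.28. The outer peaks of the same classes had 747 bp and 17.7, 301 bp and 5.36, and 216 bp and 4.19. Score and width were correlated over the central peaks (Spearman rho 0.770, n = 219, a description across peaks). The 70 peaks in both lists made up 64.1% of the central bases, whereas the outer peaks in both lists made up 76.6% of the outer bases.

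**Figure D5:**
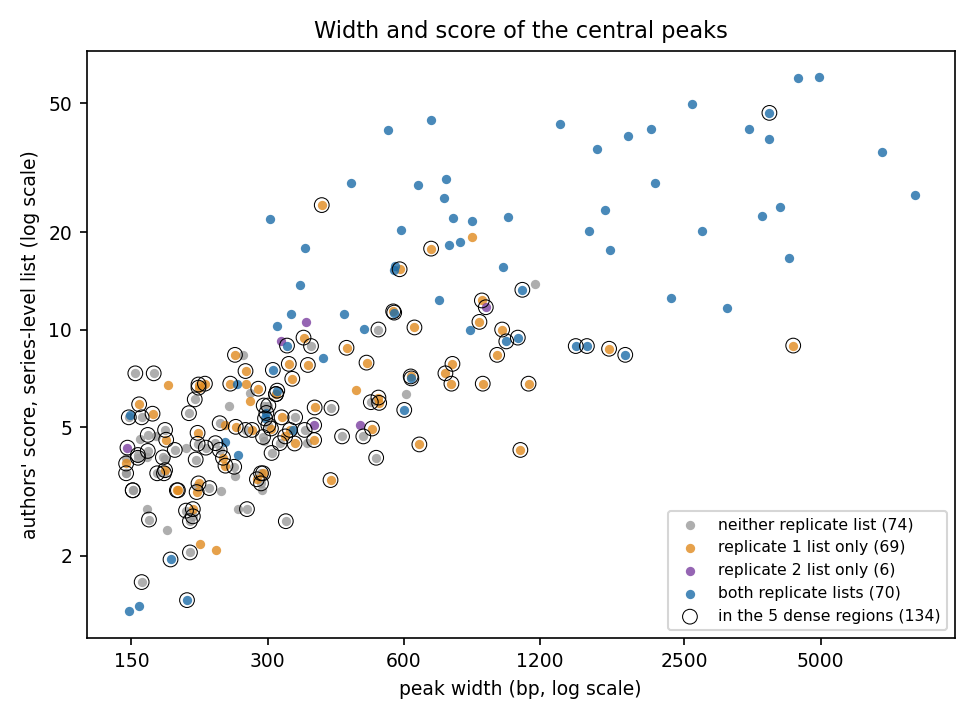
Width in bp (x axis) and authors' series-level score (y axis), both on log scales, of the 219 central peaks, coloured by the replicate lists they overlap. Circles mark the 134 peaks of the 5 dense regions, 4 of which are in the highest of 4 score classes.

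Recurrence was also compared within score classes, after ranking all 670 nuclear peaks by score and cutting the ranking into 4 even classes. The top class had 37 of 41 central peaks (90.2%) and 122 of 127 outer peaks (96.1%) in both lists. In the next class down the shares were 41.7% of 48 central and 59.7% of 119 outer peaks. In the class below that, they were 11.4% of 70 central and 8.25% of 97 outer peaks, and in the lowest class 8.33% of 60 and 7.41% of 108. In the second-lowest class, replicate 1 was overlapped by 55.7% of central and 30.9% of outer peaks, and replicate 2 by 14.3% of central and 23.7% of outer peaks. The classes were not split by dense region. Dense central regions held 134 of the 219 central peaks but 4 of the 41 in the top class, so their other peaks fell in the lower classes. The central shares of those classes therefore include the dense regions and do not describe the central peaks outside them.

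The 4 central peaks of the highest class that were not found in both lists were all in replicate 1 alone, and they came from 2 places. They were chosen after their values were seen. At IV 8573298 to 8581051, the dense region with no replicate 2 peak, 3 of them had scores of 15.4, 24.3 and 17.8. The fourth was V 7989007 to 7989853, with a series-level score of 19.3 and a replicate 1 score of 375. It opens a region of 4 peaks up to V 7993528, all 4 of which were in replicate 1 alone.

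The central peaks with the highest scores and no counterpart in either list were modest. They were III 8862672 to 8863841 (1170 bp, score 13.9), II 9823993 to 9824519 (10.0), IV 6730040 to 6730413 (8.90), X 9607196 to 9607460 (8.36) and IV 6685500 to 6685667 (7.33). The II peak and both IV peaks lay in dense regions. The III peak lay 34.0 kb and the X peak 168 kb from the nearest peak of either replicate list. The narrowest width, 146 bp, was that of 4 central peaks, the first of them at IV 6701145 to 6701290, which was in neither list.

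Of the central replicate peaks without a counterpart in the other replicate, the 5 highest of each list were as follows, with scores that rank within that list. In replicate 1 they were V 7988880 to 7991506 (score 375), X 6357657 to 6357901 (349), IV 8578212 to 8581019 (271), IV 6669902 to 6670375 (238) and IV 6727650 to 6728138 (196). The last pair lay in the largest region. In replicate 2 they were X 8181885 to 8182141 (208), X 5914590 to 5914871 (111), II 9819488 to 9819754 (108), X 8603084 to 8603272 (95.0) and V 8771238 to 8771388 (76.6). Some lay close to a peak of the other replicate. The distance was 0.145 kb for X 5914590, 0.76 kb for IV 6727650 and 0.899 kb for II 9819488, and at least 41.3 kb for the rest. The peak at X 5914590 lay inside the central peak X 5913363 to 5915694, which was found in both lists. The X peak at 8181885 lay 829 kb from the nearest replicate 1 peak and marked the only central region with a peak in replicate 2 alone. The peaks at X 6357657, X 8603084 and V 8771238 overlapped no series-level peak and so mark no member. Of the central replicate 1 peaks, 162 of 194 overlapped a series-level peak (83.5%, against 84.0% of outer ones). For replicate 2 it was 102 of 109 (93.6%, against 94.1% of outer ones).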

How the data were processed

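Per the submitters' processing notes, BWA was the aligner and ce10 the genome, and per the file headers the build is WormBase WS220. MACS made the list of either ChIP library and MACS version 2 the series-level one, as the files' source columns state. Each deposited peak has a start, an end and 1 score, the authors' peak caller's own value. Calling threshold, input use and the combination of replicates: not given in the sources used here. The labels do not state if both libraries stem from 1 culture or several, so the replicate spread may be technical.

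Starts, ends and scores were read as deposited with pandas 2.3.3 under Python 3.11.15, analysed with scipy 1.17.1 and numpy 2.4.6, and plotted with matplotlib 3.10.9. Peaks overlapped when they shared at least 1 bp, and peaks with fewer than 10 kb between them were joined. Overlap, joining and placement were tested on simulated data with known answers. Mitochondrial peaks were left out. Peaks were named by rule: the 25 highest in both lists, the 5 highest in neither, the highest per chromosome, the widest and narrowest, the 5 on each side of a bound, regions of 5 or more, and the 5 highest unshared peaks of each replicate. Members, rules and lists were chosen with earlier results of these data known. No genome of this build was used, so peaks are given without genes or sequence.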

Additional observations from a re-analysis of the deposited data

How the results depend on the processing

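No paired analysis was possible because input libraries have no peak list here and no result comes from a test. Of 31 alternatives, 13 moved a value by less than its interval or the replicate SD and 18 moved it further. Of the 31, 3 were chosen after seeing the data. Leaving out 1 of 2 replicates always moves their mean by less than their SD. For the mean central share of replicate peaks, those outcomes were thus fixed in advance. Requiring the whole peak to lie in the central part had to leave the central share of peaks unchanged, because the bounds split no peak. The middle 50% of the chromosome contains the central part, so that share could not fall. The share found in both lists could not rise when 50% had to be covered, nor fall when a replicate was left out. The ranges used for the median differences were -90 to -19 bp and -2.21 to -0.76. The share of central peaks found in both lists (32.0%) was 24.7% when 50% of the peak had to be covered, 60.4% in the upper 50% by score, 40.1% without the region with the most peaks and 47.0% without the 2 with the most. It was 71.0% for joined regions and 62.4% without all 5 dense regions, both added later. It was 34.7% without replicate 1 and 63.5% without replicate 2. The central share of peaks (32.7%) was 27.7% in the upper 50% by score, 26.4% and 20.6% without the largest and the 2 largest regions by peak count, 15.9% without all 5 (added later) and 53.1% for the middle 50% of the chromosome. The central share of covered bases (30.9%) was 27.5% and 24.7% without the largest and the 2 largest regions by peak count. The mean central share of replicate peaks (29.3%) was 24.4% without replicate 1, 34.2% without replicate 2 and 22.8% without the 2 largest regions. The median width, central minus outer, was -62 bp, but 55.5 bp in the upper 50% by score, 59 bp without the 2 largest regions and 1.5 bp for peaks in both lists. The median score, central minus outer, was -1.60, and was 0.79 without the 2 largest regions and -2.045 for peaks in both lists. Where regions were left out, they were central ones, and the dense outer regions stayed in. Chromosome lengths from a genome of this build were not used, so that alternative was not run. The lists give no read depth, which limits every statement on a peak called in 1 replicate and not in the other.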
